A study of Homo sapiens with 4 samples.

Results

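FOXK2 binding was examined at 10 genes that restrain the cell cycle, namely the CDK inhibitor genes CDKN1A, CDKN1B, CDKN1C, CDKN2B, CDKN2C and CDKN2D, the mitotic brake kinase WEE1, and the RB family genes RB1, RBL1 and RBL2. The genes were taken by name, and their peaks were all rows of the deposited peak lists whose gene name was one of the 10. This gave 8 of 12471 peaks in replicate 1 and 12 of 27281 peaks in replicate 2. The data are ChIP-seq with an antibody against FOXK2 in OVCAR-5, an established ovarian cancer cell line that the labels describe as ascites-derived and high grade serous, at passage 4-6. All cells were untreated and of 1 genotype, so the 2 FOXK2 replicates form a single condition. The 2 input libraries carry the same replicate numbers as the FOXK2 libraries. The input libraries were not analysed here, and peaks were called separately in each replicate. A list of peaks from 1 line at 1 state gives binding sites and their rank, and allows no test between conditions.

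FOXK2 is a forkhead transcription factor, a family that recognises the core TGTTTAC and its variants. The CIP/KIP inhibitors CDKN1A, CDKN1B and CDKN1C bind cyclin-CDK complexes, while the INK4 inhibitors CDKN2B, CDKN2C and CDKN2D bind CDK4 and CDK6. Both groups keep RB1, RBL1 and RBL2 in the form that holds back E2F factors, and RBL1 and RBL2 also act in the DREAM complex, which silences cell cycle genes in resting cells. WEE1 phosphorylates CDK1 and so delays entry into mitosis. CDKN1B and RBL2 are textbook targets of the FOXO factors, another branch of the forkhead family.

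Of the 10 genes, 5 had FOXK2 peaks that overlapped between the replicates: WEE1, RBL2, RBL1, CDKN1C and CDKN2D. WEE1 held 1 of the highest-scoring peaks of the whole series, RBL2, RBL1 and CDKN1C had peaks in the upper part of both lists, and that of CDKN2D was weak. CDKN1B and RB1 had peaks in replicate 2 alone, and no peak was assigned to CDKN1A, CDKN2B or CDKN2C in either replicate. Of 20056 protein-coding genes of RefSeq, 25.5% had overlapping peaks in both replicates, 28.6% had a peak in both, 31.3% had a peak in replicate 1 and 51.6% in replicate 2. With 5 of 10 genes in replicate 1 and 7 of 10 in replicate 2, the members' counts stood above these shares. The 10 genes were proposed with results of these data known, so the difference was not tested.

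The sequences under the leading peaks are shown because they differ in which motif they hold. All are from hg38, 5′ to 3′ on the strand named, and capitals mark the motif named with each. The first is the window of 201 bases around the WEE1 promoter peak, at chr11:9572790-9572990 on the plus strand. Capitals mark GTAAACA, which is TGTTTAC on the other strand, and a match to TTTNNCGC, a pattern shared by many E2F sites.
WEE1 promoter: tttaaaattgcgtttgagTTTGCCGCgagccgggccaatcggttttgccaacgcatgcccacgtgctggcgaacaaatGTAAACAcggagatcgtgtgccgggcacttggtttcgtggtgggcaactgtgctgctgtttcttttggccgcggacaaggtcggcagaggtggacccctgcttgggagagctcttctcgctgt
The second is the window of the same size around the upstream WEE1 peak, at chr11:9566098-9566298 on the plus strand, with capitals at TGANTCA, the pattern of AP-1 sites.
WEE1 upstream: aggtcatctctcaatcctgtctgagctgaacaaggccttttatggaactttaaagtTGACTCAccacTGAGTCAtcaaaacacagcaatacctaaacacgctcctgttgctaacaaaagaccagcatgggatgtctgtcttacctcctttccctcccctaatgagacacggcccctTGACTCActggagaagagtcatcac
The third is the window around the RBL2 peak near its start, at chr16:53435400-53435600 on the plus strand, a high-scoring peak in which none of the motifs searched was found.
RBL2 promoter: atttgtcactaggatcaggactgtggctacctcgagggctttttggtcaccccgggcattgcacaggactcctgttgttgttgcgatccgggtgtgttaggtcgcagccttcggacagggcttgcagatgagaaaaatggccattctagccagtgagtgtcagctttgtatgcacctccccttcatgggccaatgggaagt

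Shorter stretches of 30 bases show the other sites the text refers to. That of CDKN1B is at chr12:12718932-12718961 on the plus strand and that of CDKN1C at chr11:2884266-2884295 on the minus strand, both with capitals at GTAAACA. That of RBL1 is at chr20:37096000-37096029 on the minus strand, the strand of the gene, with capitals at a pair of TTTNNCGC matches.
CDKN1B site: agacgtcaaacGTAAACAgctcggtgggtt
CDKN1C site: ttgcgcggcgacGTAAACAaagctgacccg
RBL1 pair: gcagatTTTCGCGCgcTTTGGCGCaggtgg

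WEE1 had the leading peak of the group. Its promoter peak spanned chr11:9572785-9572995 in replicate 1 and chr11:9572755-9573011 in replicate 2, centred at −791 and −798 bp from the deposited TSS. The peak score, the tag number that HOMER scales to each library, was 77.2 in replicate 1 and 146.5 in replicate 2, and the peak ranked 4 in both lists. Scores under 10, which are 10557 of replicate 1 and 19445 of replicate 2, all lay within 0.0051 of a whole multiple of a step, 0.189 in replicate 1 and 0.149 in replicate 2. Higher scores, such as those of the WEE1 promoter, were not checked for this and are taken to follow the same step. Under this assumption, 1 step would be 1 tag under HOMER's default scaling to 10000000 tags. On that reading the WEE1 promoter peak held 409 tags in replicate 1 (exact Poisson 95% interval 370 to 451) and 985 in replicate 2 (924 to 1048), where the weakest peaks of the lists held 16 and 21. These intervals cover counting error only.

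The WEE1 promoter peak was also sharp. Its focus ratio, the fraction of tags on the expected side of the peak centre, was 0.932 in replicate 1 and 0.916 in replicate 2, against list medians of 0.758 and 0.755. Both peaks contained the same exact TGTTTAC at chr11:9572868-9572874, which began at −22 bp from the centre in replicate 1 and at −15 bp in replicate 2. The shared peaks nearest to it in rank in both lists were those of WIPI1 (rank 3 in both), NDUFAF6 (rank 2 in both) and HIBADH (ranks 7 and 6).

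A further WEE1 peak lay upstream, with its centre at −7483 bp from the TSS in both replicates. It spanned chr11:9566093-9566303 in replicate 1, with a score of 16 and rank 498, and chr11:9566070-9566326 in replicate 2, with a score of 29.9 and rank 542. It held no TGTTTAC, and no match to its variants TATTTAC and also TGTTTGC and also TATTTGC. It held 3 copies of TGANTCA within 100 bp of its centre, at chr11:9566154-9566160, chr11:9566165-9566171 and chr11:9566274-9566280. By comparison, TGANTCA occurred in 20.8% of all peaks of replicate 1 and in 21% of those of replicate 2, and 3 or more copies in 0.273% and 0.191%. The number of 3 copies was taken from this peak, so its rarity is a description. This upstream peak was the only one among the member peaks with that pattern. In replicate 2 alone, an intergenic peak 38464 bp past the WEE1 TSS had a score of 12.6 and rank 4807, and 67% of the 500 peaks closest in rank had a partner in replicate 1.

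**Figure D1:**
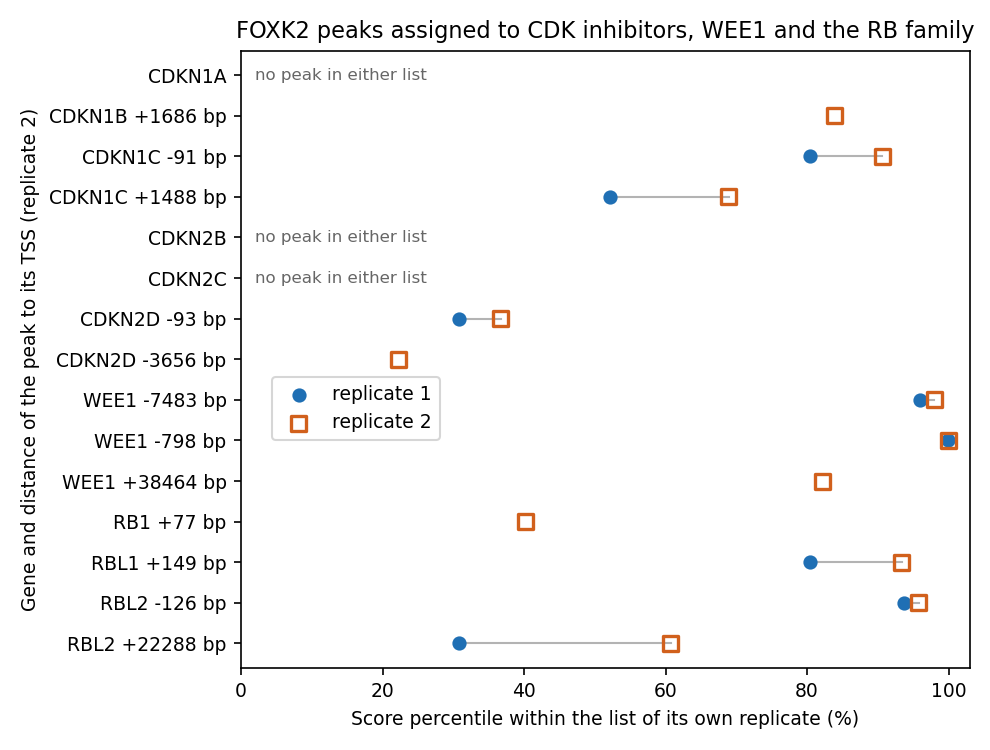
Score percentile of each member peak (x axis, in percent, within the list of its own replicate) by gene and distance to the TSS in replicate 2 (y axis). Filled circles are replicate 1, open squares are replicate 2 and grey lines join overlapping peaks. The WEE1 promoter peak sits at the top of both lists, CDKN1B and RB1 have a square only, and CDKN1A, CDKN2B and CDKN2C have no peak.

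In the RB family, RBL2 and RBL1 had higher-scoring peaks than RB1. RBL2, which encodes the pocket protein p130, had a peak at chr16:53435395-53435605 in replicate 1, with a score of 13.8 and rank 776, and at chr16:53435365-53435621 in replicate 2, with a score of 22.6 and rank 1133. The centres were 7 bp apart. The deposited files place this peak at −119 and −126 bp from the start of one RBL2 transcript. In GENCODE the same centres fell in intron 1 of 21 of the canonical RBL2 transcript, 1029 and 1022 bp past its start, so the promoter class rests on a later start of the gene. The shared peaks nearest in rank were those of RAB11A, RPL19 and ERI2, with ranks of 776, 813 and 742 in replicate 1 and of 1118, 1133 and 1118 in replicate 2.

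RBL2 also had a weaker shared peak in intron 8 of 21, 22216 bp past the deposited TSS in replicate 1 and 22288 bp past it in replicate 2. Its scores were 4.9 and 8.48, at score percentiles of 30.8 and 60.7, and the centres were 72 bp apart. None of the RBL2 peaks held TGTTTAC or a variant within 100 bp of the centre.

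RBL1, which encodes the pocket protein p107, had 1 peak in each replicate. It lay at chr20:37095992-37096202 in replicate 1, with a score of 9.05 and rank 2363, and at chr20:37095938-37096194 in replicate 2, with a score of 19 and rank 1788. The deposited annotation calls it 5′ UTR, in exon 1 of 22, at 118 and 149 bp past the TSS. The canonical GENCODE start lies further along the gene, and by it the centres were at −100 and −69 bp. Of the 8 shared member pairs, this pair had the largest score ratio of replicate 2 to replicate 1, at 2.1, against a median of 1.73 over all 9343 pairs and a 75th percentile of 2.02.

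The RBL1 peaks held no forkhead match, but TTTGGCGC at chr20:37096006-37096013 and TTTCGCGC at chr20:37096016-37096023, both on the strand of the gene. Over the whole lists, TTTNNCGC occurred in 3.35% of peaks in replicate 1 and in 2.84% in replicate 2. Among member peaks it occurred in 2 of 8 in replicate 1 (WEE1 promoter and RBL1) and in 3 of 12 in replicate 2, where the RB1 promoter peak was the third. The whole lists cover every peak class, with 21.7% and 18% in the promoter class, whereas the member peaks with this motif lay near gene starts. The classes compared are thus unlike. This motif was chosen with the peaks known, and the difference was not tested.

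RB1, the founding member of the family, had a weak promoter peak in replicate 2 alone, at chr13:48303696-48303952 and centred 77 bp past the TSS. Its score was 6.39, rank 16067 and percentile 40.2. Of the 500 replicate 2 peaks closest in rank, 20.6% had a partner, so most peaks of this strength were found in replicate 2 alone. The nearest replicate 1 peak was assigned to ITM2B, at −69828 bp from the canonical RB1 start. Near the far end of the GENCODE model of RB1, which runs over 295693 bp, 2 peaks overlapped between replicates and were deposited as intergenic under other names. The peak named RCBTB2 scored 4.53 and 8.92, and the peak named LINC00462 scored 4.53 and 10.3.

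**Figure D2:**
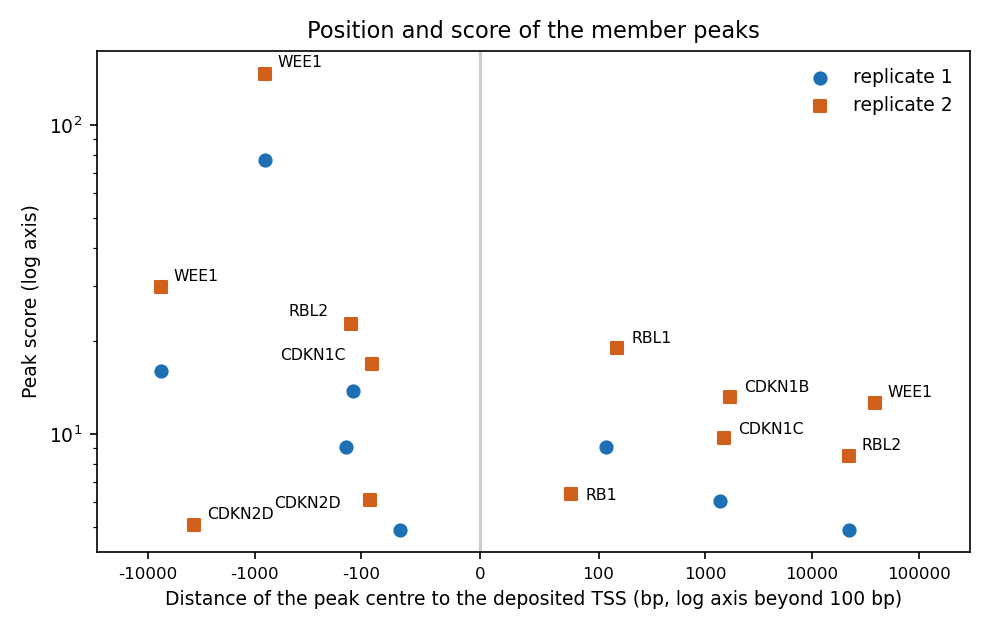
Peak score (y axis, log scale) against the distance of the peak centre to the deposited TSS (x axis, bp, linear within 100 bp of the TSS and log beyond) for the 8 member peaks of replicate 1 (circles) and the 12 of replicate 2 (squares, named). Most peaks lie close to a TSS, and the far ones belong to WEE1, RBL2 and CDKN2D.

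Among the CIP/KIP inhibitors, CDKN1C had 2 peaks that were shared between the replicates. CDKN1C, an imprinted inhibitor known for its role in growth control, had a promoter peak at chr11:2885798-2886008 in replicate 1, with a score of 9.05 and rank 2363, and at chr11:2885728-2885984 in replicate 2, with a score of 16.8 and rank 2515. Its centres lay at −138 and −91 bp from the TSS. The second peak was in intron 2 of 3, at chr11:2884296-2884506 with a score of 6.04 in replicate 1 and at chr11:2884149-2884405 with a score of 9.67 in replicate 2. The intron peaks were diffuse, with focus ratios of 0.549 and 0.657, and their centres were 124 bp apart. Their overlap of 109 bp did not reach 50% of both peaks.

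An exact TGTTTAC stood at the centre of the replicate 2 intron peak, at chr11:2884277-2884283. It lay outside the window of 100 bp around the replicate 1 centre. All CDKN1C windows were rich in G and C, from 73.1% to 78.1% of bases, and the promoter windows held none of the motifs searched.

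CDKN1B, the gene of the inhibitor p27, had a peak in replicate 2 alone. It lay at chr12:12718828-12719084, 1686 bp past the TSS in intron 2 of 2, with a score of 13.2, rank 4362 and a focus ratio of 0.865. It held an exact TGTTTAC at chr12:12718943-12718949, at −13 bp from the centre. Of the 500 replicate 2 peaks closest in rank, 69.2% had a partner. The CDKN1B peak, at the score percentile of 83.8, had no partner, and no replicate 1 peak was assigned to CDKN1B.

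A pair of overlapping peaks at the promoter of the neighbour GPR19 also fell within the GENCODE model of CDKN1B, next to alternative upstream starts of that gene. It scored 5.47 in replicate 1 and 12.6 in replicate 2, its centres were 317 and 386 bp past the nearest such start, and each window held 1 TGTTTAC. The deposited files assign it to GPR19, at −489 and −558 bp from the GPR19 start. By the nearest GENCODE start, CDKN1B had peaks in both replicates, and the number of members with overlapping peaks rose from 5 to 6.

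CDKN1A, the gene of the inhibitor p21, had no assigned peak. In replicate 1 the nearest peak of any name was in CPNE5, 80535 bp past the canonical CDKN1A start. In replicate 2 it was an intergenic peak with a score of 5.65, at −11499 bp from that start and assigned to the long noncoding RNA gene PANDAR. That peak ranked 18588 and had no partner in replicate 1.

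Of the INK4 genes, CDKN2D alone had assigned peaks, and their scores were low. CDKN2D had a promoter peak in both replicates, at chr19:10568941-10569151 with a score of 4.9 in replicate 1 and at chr19:10568944-10569200 with a score of 6.1 in replicate 2. The ranks were 8397 and 17012, and the score percentiles were 30.8 and 36.7. The centres, at −67 and −93 bp from the TSS, were 26 bp apart. Its score ratio of 1.25 was the smallest of the 8 member pairs, at the percentile of 10.5 among all pairs. In replicate 2 alone, a peak with a score of 5.06 at −3656 bp from the CDKN2D TSS was annotated to a transcription termination site, and it overlapped the end of the neighbour AP1M2.

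CDKN2C had no assigned peak, although a FOXK2 peak lay close to it. In replicate 2, a peak at chr1:50960222-50960478 with a score of 11.9 and rank 5462 was assigned to FAF1, at −86 bp from the FAF1 start. FAF1 runs in the opposite direction from the same region, and the peak was at −395 bp from the nearest GENCODE start of CDKN2C. It had no partner in replicate 1. The canonical CDKN2C transcript starts further along, 9895 bp from that peak. A peak in an intron of FAF1 was shared, with scores of 6.98 in replicate 1 and 9.67 in replicate 2, and each window held 1 TGTTTAC. It lay at −19521 and −19532 bp from the canonical CDKN2C start.

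CDKN2B stood in a long stretch without peaks. The nearest peak to its start was 1323800 bp away in replicate 1 and 324128 bp away in replicate 2, where 98.6% and 97% of 19962 protein-coding genes had a peak at least as near. The median gene had a peak at 45152 bp in replicate 1 and at 13957 bp in replicate 2. In replicate 1 the stretch ran over 6061258 bp, between peak centres at positions 20685505 and 26746763 of chromosome 9, and was number 16 by length of 12445 intervals between peaks. In replicate 2 it ran over 710924 bp, from 21685177 to 22396101, and was number 423 of 27253. Within it lay the canonical starts of 3 protein-coding genes, MTAP, CDKN2A and CDKN2B. The CDKN2A start was 1289352 bp from the nearest peak in replicate 1 and 289680 bp in replicate 2, so the lack of peaks was not particular to CDKN2B. Peak lists without input coverage cannot tell an unbound region from a region with few reads.

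**Figure D3:**
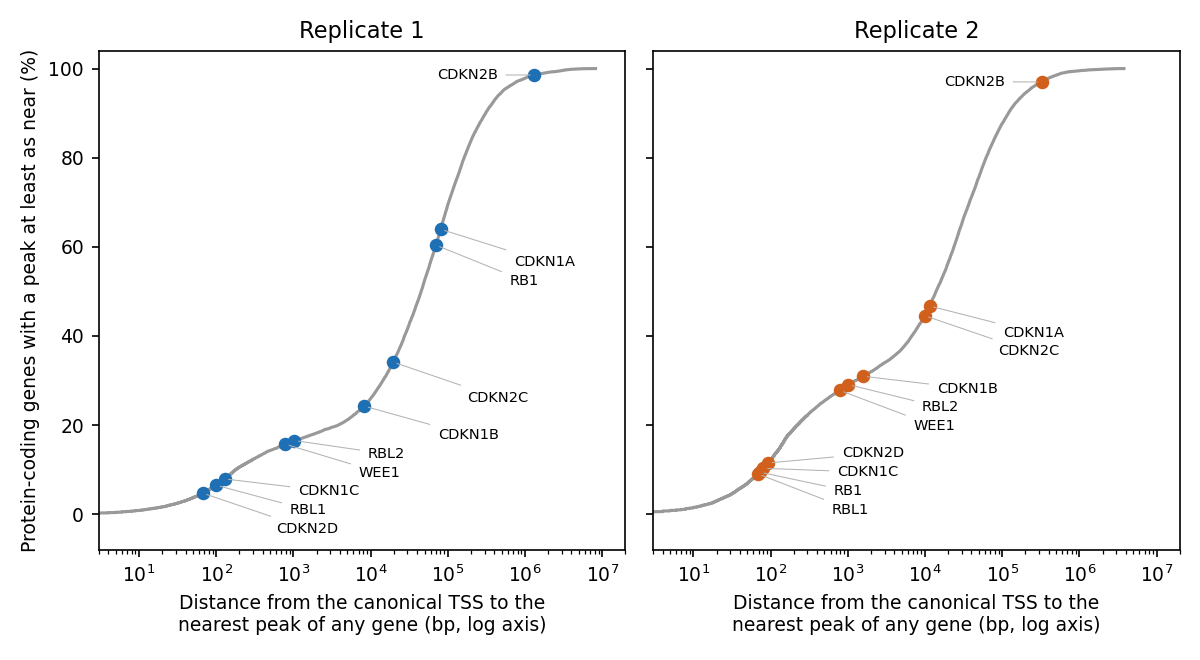
Distance from the canonical TSS to the nearest FOXK2 peak of any gene (x axis, bp, log scale) against the share of protein-coding genes with a peak at least as near (y axis, percent), in replicate 1 (left) and replicate 2 (right). The grey line is all 19962 genes and the points are the 10 members. RBL1, CDKN1C and CDKN2D lie nearest to a peak in replicate 1, at 67 to 128 bp, and CDKN2B lies at 98.6% and 97%.

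Ranked on the best shared peak of each gene, with score percentiles averaged over the replicates, the order was WEE1 (99.98), RBL2 (94.7), RBL1 (86.9), CDKN1C (85.6) and CDKN2D (33.8). Among 5108 protein-coding genes with such a peak, these stood at positions 4, 648, 1413, 1529 and 4580. RBL1 and CDKN1C, neighbours in this order, tied in replicate 1 at the percentile of 80.5 and stood at 93.4 and 90.7 in replicate 2, a gap within the difference between replicates.

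Every one of the 8 member peaks of replicate 1 overlapped a replicate 2 peak (100%, Wilson 95% interval 67.6% to 100%), against 74.9% of all replicate 1 peaks. In replicate 2, 8 of 12 did (66.7%, 39.1% to 86.2%), against 34.2% of all. Of the 500 peaks closest in rank to each member peak, 61.6% to 100% had a partner in replicate 1 and 8.4% to 99.6% in replicate 2, where the lowest values were those at the CDKN2D and RB1 peaks. Promoter peaks in both replicates were found for 4 of 10 members (WEE1, RBL2, CDKN1C and CDKN2D), against 9.29% of all protein-coding genes. The promoter class made up 4 of 8 member peaks in replicate 1 and 5 of 12 in replicate 2, where it made up 21.7% and 18% of all peaks.

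**Figure D4:**
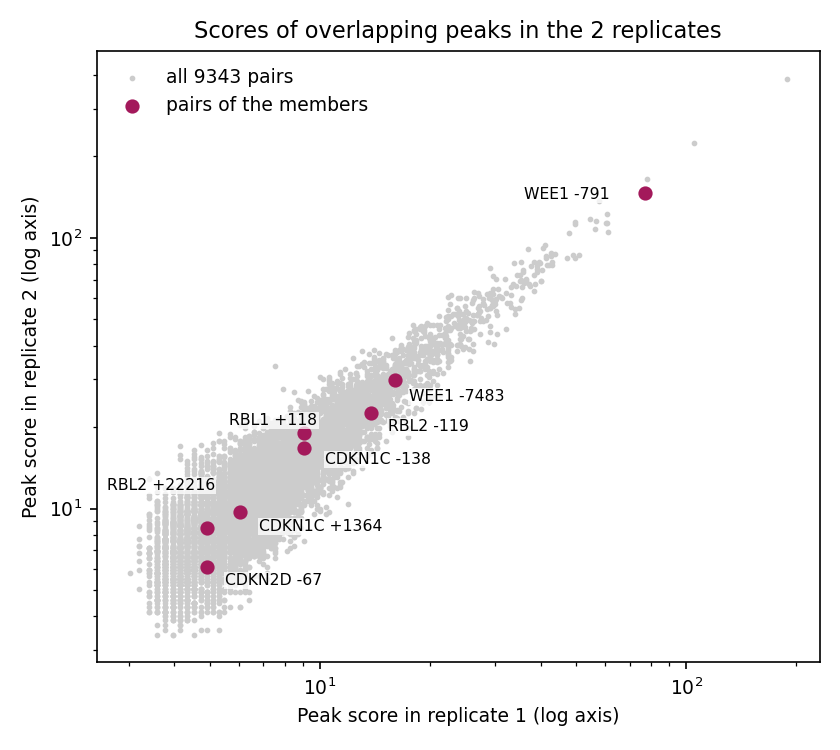
Peak score in replicate 1 (x axis, log scale) against peak score in replicate 2 (y axis, log scale) for all 9343 overlapping pairs (grey) and the 8 pairs of the members (named with the distance to the TSS in replicate 1, in bp). The members' score ratios run from 1.25 at CDKN2D to 2.1 at RBL1, around the median of 1.73 over all pairs.

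Within 100 bp of the peak centre, on either strand, TGTTTAC lay in 1 of 8 member peaks in replicate 1 (12.5%, Wilson 95% interval 2.24% to 47.1%) against 30.5% of all peaks, and in 3 of 12 in replicate 2 (25%, 8.89% to 53.2%) against 28.2%. The peaks that held it were those of the WEE1 promoter in both replicates and of CDKN1B and the CDKN1C intron in replicate 2. Adding the 3 variants brought no further member peak, while 41.8% and 40.3% of all peaks held 1 of these 4. The 8 shared sites count once in each replicate, so the shares of the replicates are not independent, and they were not tested against the lists. Within 500 bp of the centre, TGTTTAC lay in 3 of 8 member peaks in replicate 1 (37.5%, against 38.4% of all peaks) and in 4 of 12 in replicate 2 (33.3%, against 35.7%).

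Other cell cycle genes were taken from a list of 41 genes by role. Of these, 15 had a peak in replicate 1, 28 in replicate 2 and 14 in both, and 13 had overlapping peaks (31.7%, against 25.5% of all protein-coding genes). The count of 14 fell to 8 in the higher-scoring 50% of each list and to 9 in lists of equal length. A shorter list can only lower such a count for any gene set. The share of all protein-coding genes under these settings was not computed, so the fall is not particular to these genes. Among the cyclins, 4 of 9 had overlapping peaks (CCNE1, CCND3, CCNB2 and CCNA2), and among the CDC25 phosphatases, which undo the phosphorylation made by WEE1, 2 of 3 did (CDC25C and CDC25B). The same held for 1 of 5 kinases (CDK6), 1 of 4 further inhibitor genes (CDKN3), 3 of 10 E2F and DP factors (TFDP2, E2F6 and E2F7), 2 of 7 genes of the DREAM and MYB-MuvB complexes (LIN52 and LIN54) and 0 of 3 genes of inhibitor turnover. The shares ran from 0% for inhibitor turnover to 66.7% for the phosphatases, with the 10 members at 50%, and the differences between these small groups were not tested.

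The leading list genes were few and strong. CCNE1, the cyclin partner of CDK2 at the start of S phase, had an intergenic peak 32483 and 32478 bp past its TSS. That peak had scores of 54.5 and 117.2 and ranks of 12 and 7. A promoter peak of CCNE1 was also shared, with scores of 25.7 and 35.2. LIN52, a core subunit that DREAM shares with the MYB complex, had a promoter peak with scores of 35.3 and 69 and ranks of 55 and 57. CDC25C, the phosphatase that activates CDK1, had a promoter peak with scores of 17 and 30.6 and ranks of 429 and 513. CCND3, a D-type cyclin, had scores of 16.8 and 29.4 at its promoter, and CDK6, its kinase partner, had scores of 14.7 and 27.4 at a peak 81562 and 81543 bp past its TSS. WEE1 scored above all of these in both replicates.

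In replicate 2 alone, 14 of the 41 list genes had peaks, as did 4618 of all 20056 protein-coding genes. Those of the list included promoter peaks of CDK4 (score 11.3), CDK7 (score 10.4), LIN37 (score 11.9) and E2F4 (score 14), a repressive E2F that partners RBL1 and RBL2. These 4 were named after their values were seen. CDK1 and CDK2, the kinases that CIP/KIP inhibitors hold in check, had no peak in either replicate.

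**Figure D5:**
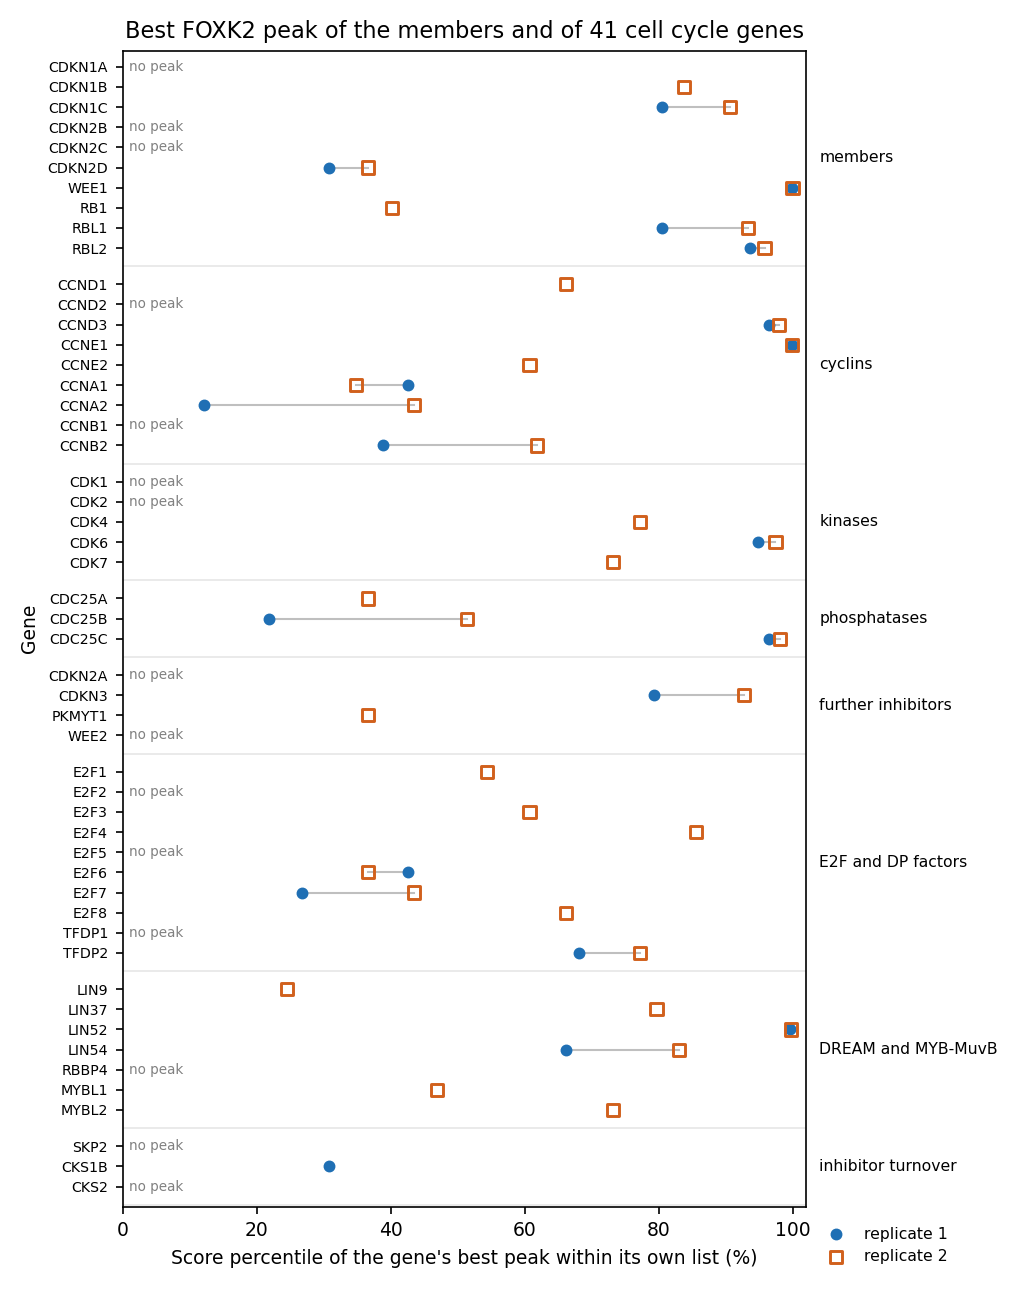
Score percentile of the best peak of each gene (x axis, percent, within the list of its own replicate) for the 10 members and the 41 cell cycle genes by role (y axis). Filled circles are replicate 1, open squares are replicate 2, and grey lines join the best peaks of a gene in the 2 lists, which need not overlap. WEE1, CCNE1 and LIN52 stand at the top of both lists.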

How the data were processed

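FOXK2 ChIP-seq peaks of OVCAR-5 cells were analysed from the lists of both replicates. Per the labels and methods, the authors mapped reads to hg38 with Bowtie2 2.2.6 and called and annotated peaks with HOMER 4.10, whose peak score and focus ratio (a fraction) were taken as deposited, without any added cutoff. Ranks and percentiles were computed within each list. The members and the gene lists were chosen with earlier results of these data known. All members are named, list genes are named where peaks overlapped between replicates, with values for the best 5, and genes named beyond this were chosen after their values were seen.

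Peaks were paired by an overlap of at least 1 bp, by the longest overlap. Depth was known only through the score steps: 1 step as 1 tag of 10000000 would give 53011646 tags in replicate 1 and 67240909 in replicate 2. Shares carry Wilson 95% intervals. Motifs were searched in hg38, and canonical starts are those of GENCODE release 44. Alternatives were the higher-scoring 50% of each list, lists of equal length, limits on the TSS distance, stricter overlap, other motif windows and variants, the nearest GENCODE start and leaving out each replicate. Peak pairing and motif search were each tested on simulated data with known answers. Input, H3K27Ac and RNA-seq data were not analysed here. Python 3.11.15, numpy 2.4.6, pandas 2.3.3, scipy 1.17.1, pysam 0.24.0 and matplotlib 3.10.9 were used.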

Additional observations from a re-analysis of the deposited data

How the results depend on the processing

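No paired analysis was possible because a single condition has peak lists. Of 49 alternative values, 45 stayed within the limits set for them and 4 went beyond them. The limits were a fixed ratio for counts, the Wilson interval for shares and 1 SD of the replicates for percentiles. Some alternatives could not move a value, since no member peak lay more than 100000 bp from its TSS. The tally is therefore no measure of how firm the results are. Members with a peak in both replicates numbered 4 to 6 under the alternatives that kept both lists: CDKN2D was lost with the higher-scoring 50% of each list and with lists of equal length, and CDKN1B was gained with the nearest GENCODE start. Without replicate 1 they numbered 7 and without replicate 2 they numbered 5. Members with promoter peaks in both numbered 3 to 4, or 4 to 5 in single replicates, and those with overlapping peaks 4 to 6. List genes with a peak in both replicates, 14 in all, numbered 8 with the higher-scoring 50% and 9 with lists of equal length. They numbered 15 to 28 on leaving out 1 replicate at a time. For the shortened or reassigned lists, the share of all protein-coding genes was not computed beside the counts of members and list genes. With lists of equal length the mean score percentile went from 94.7 to 92.25 for RBL2. It went from 86.9 to 83.0 for RBL1 and from 85.6 to 80.0 for CDKN1C, and CDKN2D had no value. Only RBL2 went beyond 1 SD of its replicates, although its change was the smallest. Its replicates lay close together (93.6 and 95.8), and those of RBL1 (80.5 and 93.4) and CDKN1C (80.5 and 90.7) lay further apart. This SD comes from lists of unlike length. The lists differ in length, 12471 against 27281 peaks, and the part of depth in peaks found in replicate 2 alone was not tested.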

Other observations

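FOXK2 peaks assigned to other genes also lay within 100 kb of the GENCODE models of the members. Beside CDKN1B, the promoter of CREBL2 had a peak that scored 17.2 in replicate 1 (rank 416) and 34.4 in replicate 2 (rank 390), above every CDKN1B value. Beside CDKN2D, the promoter peak of KRI1 scored 7.92 and 15.6. Beside RBL1, RPN2 had a pair of peaks near its start in each replicate, with scores of 7.92 and 7.73 in replicate 1 and of 9.67 and 21.4 in replicate 2. Beside RBL2, the promoter peak of AKTIP scored 8.68 and 10.4. No peak of any name lay within 100 kb of CDKN2B in either replicate.

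The RefSeq promoter table, from 250 bases before to 50 after each start (GRCh38.p14), held 11 entries for 8 of the 10 members, all but CDKN1C and WEE1. TGTTTAC lay in 0 of these 11 entries and in 3.42% of all 35116 promoters. TTTNNCGC was counted in 2 of the 11 (CDKN2D and RBL1) and in 6.89% of all, and TGANTCA in 1 (RB1) and in 7.71% of all. RB1 was not counted for TTTNNCGC, although its replicate 2 peak held TTTCCCGC at chr13:48303726-48303733, ahead of the canonical start at position 48303751. The reason for this mismatch was not examined, so the member counts and the shares of all promoters may be incomplete. All of these counts are descriptions of letters in a window, with no test.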
